A study of Homo sapiens with 5 samples.

Results

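The mRNAs of 46 genes that encode the mRNA decay machinery were examined in WI-38 cells, a human diploid fibroblast line from lung. The genes were chosen by name and cover 9 groups: the CCR4-NOT deadenylase, the PAN2-PAN3 and PARN deadenylases, the TOB and BTG adaptors, the decapping proteins, the LSM1-7 ring, the XRN exonucleases, the exosome core, the exosome nucleases and nonsense-mediated decay. Of the 46, 38 had a mean of at least 1 FPKM (fragments normalised to transcript length and library size) over the libraries and were tested, among 13404 genes in all. A gene's FPKM is the sum over its annotated transcripts.

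Total RNA was sequenced in 5 libraries. They came from untransfected cells at population doubling level (PDL) 55, from PDL 15 cells given AUF1 siRNA, HuR siRNA or a control siRNA, and from untransfected cells at PDL 15. Each of these groups had 1 library, so every difference compares 2 libraries and not 2 conditions, and there is no replicate check. In bulk RNA such as this, fewer cells with an mRNA and less of the mRNA in each cell cannot be told apart.

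Decay of most mRNAs begins with shortening of the poly(A) tail by PAN2-PAN3 and then by CCR4-NOT, which the TOB and BTG proteins help to recruit. The shortened mRNA is bound by the LSM1-7 ring, its cap is removed by DCP2 with its partners, and XRN1 digests it from the 5′ end, while the cytoplasmic exosome can degrade it from the 3′ end. AUF1 and HuR bind AU-rich elements in 3′ untranslated regions, and AUF1 is known mainly for promoting, HuR for slowing, the decay of mRNAs that carry them.

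The targeted genes were read first. HNRNPD, which encodes AUF1, had 20.3 FPKM with AUF1 siRNA, against 61.2 FPKM with control siRNA. ELAVL1, which encodes HuR, had 9.72 FPKM with HuR siRNA and 11.8 FPKM with control siRNA. Its 95% intervals in these libraries (8.59 to 10.9 and 9.38 to 14.2) overlapped, so at the mRNA level the library labelled HuR siRNA did not stand apart from its control. The HuR siRNA level was still the lowest of the 5 libraries. The intervals at PDL 55 (11.01 to 13.39), with AUF1 siRNA (16.25 to 19.2) and at PDL 15 (15.24 to 18.06) lay above that with HuR siRNA. The control siRNA library differed from the other 4 in other ways. The coverage per FPKM, a measure that grows with depth, was 0.300 there, against 1.14 to 1.29 in the others. Assembled transcripts under 100 nt held 73.8% of its FPKM times length, against 4.09% to 8.18% in the others. Of 10 fibroblast markers 9 had a mean of at least 1 FPKM, with a summed level of 1952 FPKM at PDL 55, 4838 with AUF1 siRNA, 4113 with HuR siRNA, 758 with control siRNA and 3768 at PDL 15. VIM, 4 of whose transcripts were marked failed, was listed at 0 with control siRNA and had 1090 to 2827 FPKM elsewhere. Without VIM the sums were 862, 2010, 1808, 758 and 2235 FPKM in that order. THY1 went the other way, with 153.9 FPKM with control siRNA and 0 FPKM at PDL 55 and PDL 15. Summed over 5 epithelial markers, the level was 6.55 FPKM at PDL 55, 16.7 with AUF1 siRNA, 11.3 with HuR siRNA, 4.38 with control siRNA and 8.37 at PDL 15. For 4 endothelial and 5 blood markers it was at most 2.02 and 4.67 FPKM, both in the control siRNA library. The part of these differences in the results below was not tested.

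Because AUF1 and HuR act on AU-rich elements, the members' own 3′ untranslated regions were searched, on the transcript strand, for the nonamer TTATTTATT, a core motif of such elements. Taken from 1 principal transcript per gene in GENCODE release 29 (build GRCh38), such a region was annotated for 45 members, CNOT4 being the exception. The nonamer was found in 2 of the 45, EXOSC6 and UPF1, against 7.5% of 18889 genes. Within the first 1000 nt of regions at least that long, it was in 0 of 25 members and in 5.1% of 8749 genes. Both sites, shown as 30 bases with the nonamer in capitals, lay far from the stop codon. The EXOSC6 site was at chr16:70247243-70247272 on the minus strand, with the nonamer starting at base 3820 of a region of 4304 nt, and a second nonamer overlapped it. The EXOSC6 transcript whose FPKM was summed is only 1700 nt long, so it does not reach this site. The UPF1 site was at chr19:18867923-18867952 on the plus strand, with the nonamer starting at base 1416 of 1719.
EXOSC6: tatatttattTTATTTATTtattaattatt
UPF1: gcagggactcTTATTTATTcccattgctct
By count, the shorter pentamer ATTTA was highest in the long regions of CNOT6L (26 copies in 7044 nt), DCP2 (24 copies in 7486 nt) and DIS3 (23 copies in 7626 nt). Per 1000 nt these had 3.69, 3.21 and 3.02 copies, fewer than TOB1 with 5.28 (4 copies in 757 nt). The leading summed transcripts of CNOT6L, DCP2 and DIS3 are 572, 570 and 481 nt long, so they cannot span such regions. The highest value per 1000 nt, 18.87 in EXOSC9, came from 1 copy in 53 nt. These are matches of letters and not measured binding.

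Levels per transcript length differed widely among the members. The highest by mean was CNOT1, the scaffold of CCR4-NOT, with 49.8 FPKM at PDL 55, 52.5 with AUF1 siRNA, 55.1 with HuR siRNA, 37.96 with control siRNA and 72.1 at PDL 15. With HuR siRNA, DIS3 was higher, at 58.9 FPKM. A transcript of 1425 nt held 57.0% of the CNOT1 level. The RNA helicase DDX6, which couples deadenylation to decapping, had 48.6, 29.4, 28.1, 19.9 and 63.4 FPKM in the same order of libraries. At the low end EXOSC6, a ring subunit of the exosome, had 1.15, 1.90, 1.76, 1.76 and 1.14 FPKM. The median over the 38 members was 6.46 FPKM at PDL 55, 8.36 with AUF1 siRNA, 10.2 with HuR siRNA, 7.61 with control siRNA and 9.31 at PDL 15, in each library above the median of all genes tested (4.85, 5.61, 6.21, 5.02 and 6.52 FPKM). Of the 38, 17 had their highest FPKM at PDL 15, and 16 had their lowest with control siRNA and 14 at PDL 55.

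**Figure D1:**
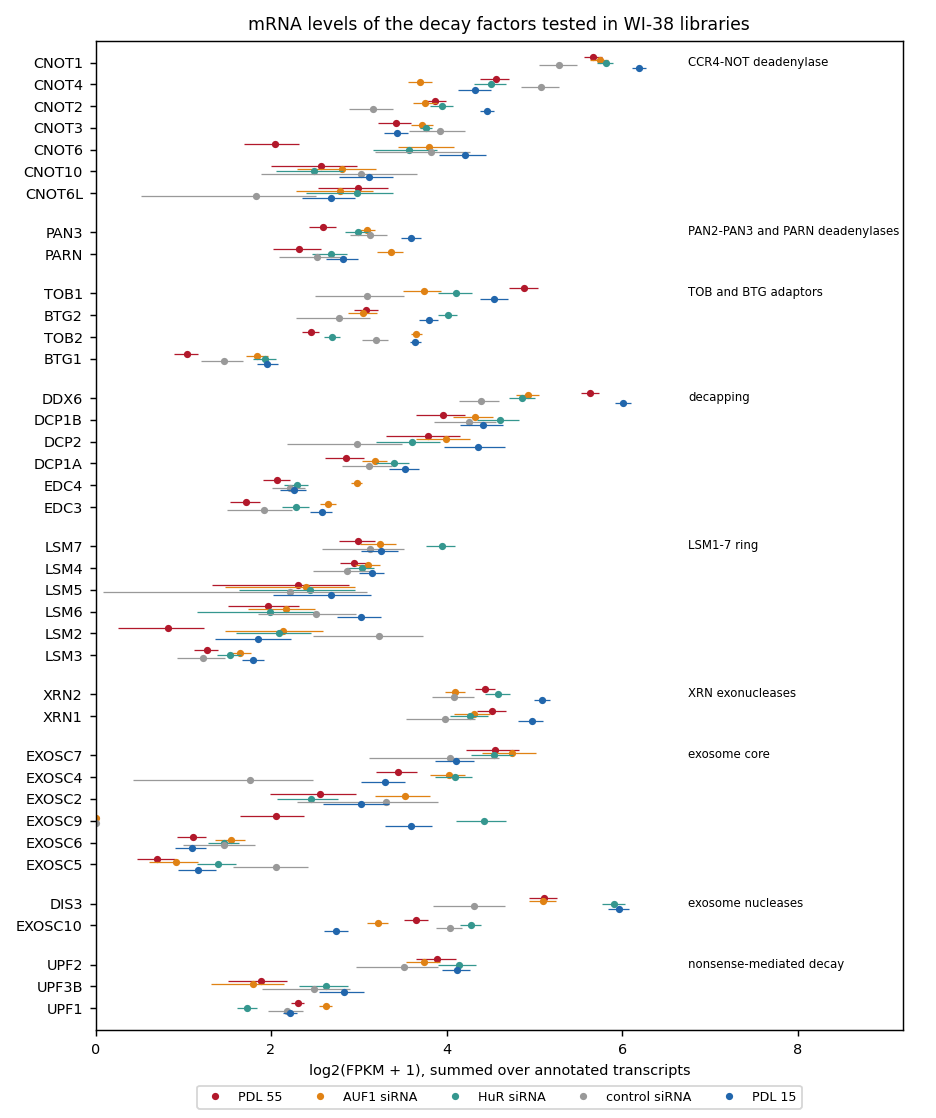
Levels of the 38 members tested, as log2(FPKM + 1), grouped by complex; each point is 1 library and each line spans its summed 95% bounds. CNOT1, DDX6 and DIS3 lie at the right end and EXOSC5, EXOSC6, BTG1 and LSM3 near the left end, and the points of EXOSC9 for AUF1 siRNA and control siRNA are at 0.

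The other 8 members have no ratio. CNOT7 and CNOT8, the catalytic CAF1 subunits of CCR4-NOT, EXOSC1 and EXOSC8 of the exosome, and SMG1, the kinase that phosphorylates UPF1, had transcripts whose estimate the authors' tables mark as failed, and what was left was listed at 0. LSM1, the subunit that sets the cytoplasmic ring apart from the nuclear one, and EXOSC3, a cap subunit of the exosome, were listed at 0 in all 5 libraries. PAN2, the catalytic partner of PAN3, was listed at 0 at PDL 55 and with AUF1 siRNA, and had 1.36 FPKM with HuR siRNA, 0.970 with control siRNA and 1.27 at PDL 15. A value of 0 in these tables can be a failed estimate, and other subunits of the same complexes were measured.

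Ratios are log2((FPKM + 1)/(FPKM + 1)) minus the median ratio of all genes tested, which was -0.31 for PDL 55 against PDL 15, 0.18 for AUF1 siRNA against control siRNA, 0.30 for HuR siRNA against the same library, -0.11 for AUF1 siRNA against HuR siRNA, and -0.41 for control siRNA against PDL 15. This scale understates differences of low genes. A gene was called when it was at least 2-fold apart on it.

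The median of the decay machinery lay close to the median gene in every comparison. Counts of called members include EXOSC9 where 1 of the libraries is listed at 0, and its size there is not given as a ratio. Between PDL 55 and PDL 15 the members' median ratio was -0.17, with 25 of 38 below the median gene. As deposited, 30 of the 38 were lower at PDL 55, against 67.4% of all genes tested. Lower with 95% intervals that did not overlap were 20 of the 38, against 41.6% of all genes tested. Only 1 member was at least 2-fold higher, against 9.61% of all genes tested, and 2 were at least 2-fold lower, against 10.3% of all genes tested. Without subtraction of the median gene, 0 were higher, against 6.27% of all genes tested, and 6 lower, against 17.0%. EXOSC10 was higher, and CNOT6 and EXOSC9 were lower.

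With AUF1 siRNA against control siRNA the members' median was 0.06, and 22 of 38 lay above the median gene. At least 2-fold higher was 1 member (EXOSC4), against 10.7% of all genes tested. At least 2-fold lower were 4 (CNOT4, LSM2, EXOSC5 and EXOSC10), against 11.9% of all genes tested. Without subtraction of the median gene 2 were higher, against 14.2% of all genes tested, and 3 lower, against 9.59%. With HuR siRNA against control siRNA the median was -0.01, with 18 of 38 above. At least 2-fold higher were 3 members (EXOSC4, DIS3 and EXOSC9, the last listed at 0 with control siRNA), against 11.4%. At least 2-fold lower were 2 (LSM2 and EXOSC2), against 12.5%. Without subtraction 6 were higher, against 18.2% of all genes tested, and 1 lower, against 8.81%. Both siRNA comparisons use the same control library.

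The AUF1 siRNA and HuR siRNA libraries were also set against each other, which leaves out the control library. The median was 0.07, with 23 of 38 members above the median gene. At least 2-fold higher with AUF1 siRNA were 3 members (TOB2, EXOSC2 and UPF1), against 6.54% of all genes tested, and 1 was lower (EXOSC9, listed at 0 with AUF1 siRNA), against 6.36%. Without subtraction of the median gene 1 was higher, against 5.43% of all genes tested, and 2 lower, against 8.0%. In the control siRNA library against PDL 15, neither of which had an siRNA against a named gene, the median was -0.06. The 4 members at least 2-fold higher were CNOT4, LSM2, EXOSC5 and EXOSC10, against 14.6% of all genes tested. The 5 lower were TOB1, DDX6, EXOSC4, DIS3 and EXOSC9, the last listed at 0 with control siRNA, against 12.0%. Without subtraction of the median gene 2 were higher, against 9.36% of all genes tested, and 9 lower, against 22.2%. Every member called with AUF1 siRNA against control siRNA was called here in the opposite direction. So was every member called with HuR siRNA against control siRNA except EXOSC2. These comparisons share the control library.

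**Figure D2:**
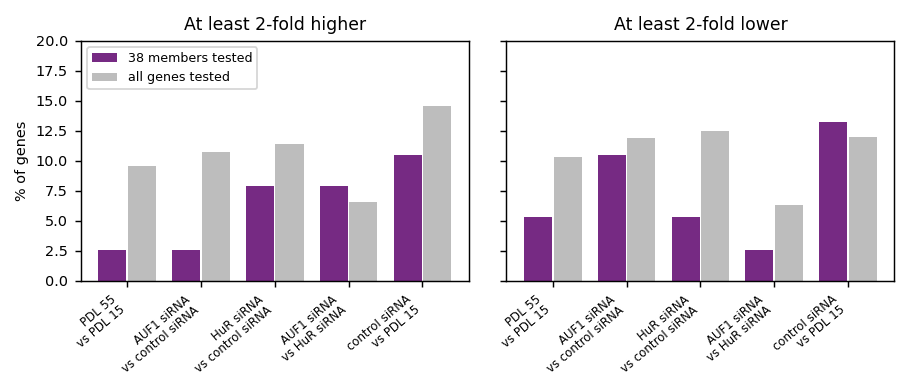
Share of the 38 members (purple, left bar) and of all 13404 genes tested (grey, right bar) that were at least 2-fold higher or lower in each of the 5 comparisons. The members' share is under that of all genes in 8 of the 10 pairs of bars, the exceptions being AUF1 siRNA against HuR siRNA (higher) and control siRNA against PDL 15 (lower).

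**Figure D3:**
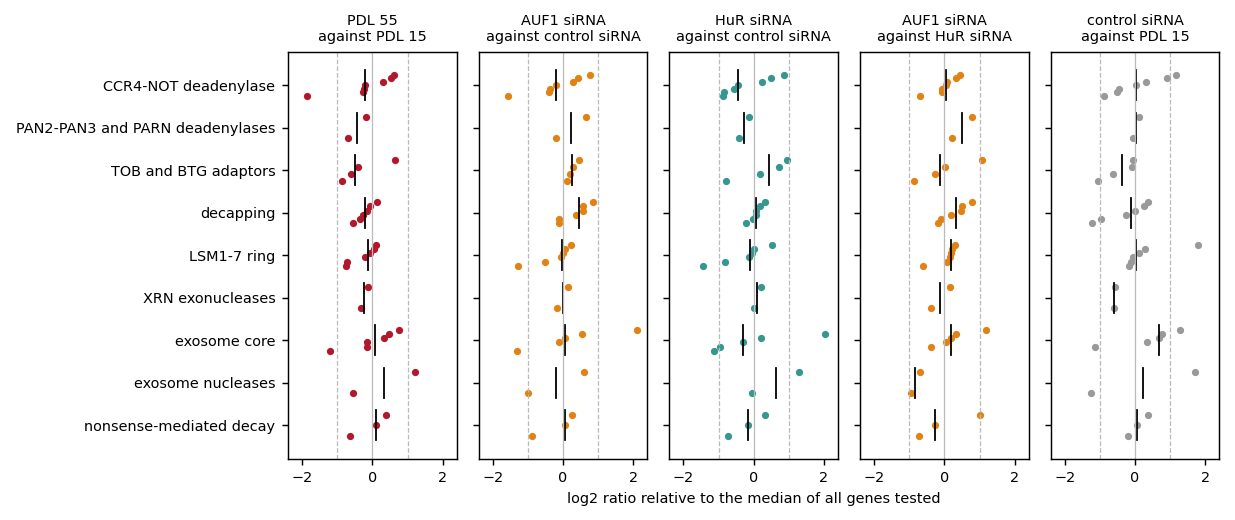
Log2 ratio of each member relative to the median gene, by complex, in the 5 comparisons; black bars are medians of the points shown, dashed lines mark 2-fold, and ratios with a library listed at 0 are left out. Most points lie between the dashed lines, and the exosome rows hold most of those outside.

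In the CCR4-NOT deadenylase 7 of 9 subunits were tested, and their median ratio was -0.21 at PDL 55 and likewise -0.21 with AUF1 siRNA, and -0.46 with HuR siRNA. The scaffold CNOT1 (ENSG00000125107, hg19 chromosome 16, 58553855 to 58663750) had ratios of -0.21, 0.28 and 0.23 in these comparisons. CNOT2 and CNOT3, which form its NOT module, had 13.7 and 9.69 FPKM at PDL 55, against 21.0 and 9.78 FPKM at PDL 15. No subunit but CNOT6 was called at PDL 55.

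CNOT6 (ENSG00000113300, hg19 chromosome 5, 179921412 to 180005405) encodes one of the CCR4-type nucleases of the complex. Its level was 3.12 FPKM at PDL 55, 12.9 with AUF1 siRNA, 10.9 with HuR siRNA, 13.2 with control siRNA and 17.5 at PDL 15. The PDL 55 library was the low one, with a ratio to PDL 15 of -1.85 and intervals that did not overlap, and against the control siRNA library its ratio was -1.82. These values rest on short transcripts: ENST00000507016, of 382 nt, had 0 FPKM at PDL 55 and 7.64 FPKM at PDL 15. The control siRNA library also had 0 FPKM for it. That library had 9.76 FPKM for ENST00000502447, of 552 nt, which was at 0 FPKM in every other library. With the transcripts assembled from the reads added, CNOT6 had 11.5 FPKM at PDL 55 and 20.1 FPKM at PDL 15, a ratio of -0.44 that is not called. Its paralog CNOT6L, the other CCR4-type nuclease, had 6.95 FPKM at PDL 55 and 5.44 FPKM at PDL 15, with overlapping intervals.

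CNOT4 (ENSG00000080802, hg19 chromosome 7, 135046547 to 135194875), a ubiquitin ligase associated with the complex, had 22.5 FPKM at PDL 55, 12.0 with AUF1 siRNA, 21.7 with HuR siRNA, 32.8 with control siRNA and 19.1 at PDL 15. The ratio was -1.56 with AUF1 siRNA and -0.87 with HuR siRNA, both against control siRNA. The control library was the high one, and its excess lay in 1 transcript of 1510 nt, ENST00000538049, at 22.6 FPKM there and 0 FPKM in the other 4 libraries. A transcript measured in all 5, ENST00000356162, had 12.2 FPKM at PDL 55, 12.0 with AUF1 siRNA, 13.0 with HuR siRNA, 10.2 with control siRNA and 10.5 at PDL 15. With assembled transcripts added, the 5 levels of CNOT4 were 35.1, 31.0, 40.5, 32.8 and 39.4 FPKM in that order, and the AUF1 siRNA ratio was -0.31.

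No other deadenylase was called. PAN3, the adaptor that binds poly(A)-binding protein, had 5.04 FPKM at PDL 55 and 11.1 FPKM at PDL 15, with intervals that did not overlap and a ratio of -0.69. PARN, which trims oligo(A) tails of nuclear RNAs as well as mRNAs, was highest with AUF1 siRNA, at 9.29 FPKM, against 4.74 FPKM with control siRNA. Its ratio of 0.66 stayed under 2-fold, and HuR siRNA, at 5.42 FPKM, lay near the control. With assembled transcripts added, PARN had 13.6 FPKM with AUF1 siRNA, 10.4 with HuR siRNA and 10.0 with control siRNA. It then had 12.25 FPKM at PDL 15 and 6.82 FPKM at PDL 55.

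Among the adaptors, TOB1 and TOB2 had ratios of opposite sign at PDL 55, and neither was called. TOB1 had 28.5 FPKM at PDL 55 and 22.3 FPKM at PDL 15, a ratio of 0.65. TOB2 had 4.47 FPKM at PDL 55 and 11.5 FPKM at PDL 15, a ratio of -0.88. For both, the intervals of these libraries did not overlap. BTG1 and BTG2, antiproliferative relatives of TOB, had ratios of -0.61 and -0.40.

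TOB2 (ENSG00000183864, hg19 chromosome 22, 41829496 to 41843027) was called between the AUF1 siRNA and HuR siRNA libraries. It had 11.6 FPKM with AUF1 siRNA, 5.47 FPKM with HuR siRNA, 8.15 FPKM with control siRNA and 11.5 FPKM at PDL 15. The AUF1 siRNA library lay near PDL 15 and the HuR siRNA library was the lowest of these 4, with a ratio of AUF1 siRNA to HuR siRNA of 1.07. All of this came from 1 transcript of 4561 nt. With assembled transcripts the levels were 13.8 FPKM with AUF1 siRNA and 7.16 FPKM with HuR siRNA, a ratio of 0.97, and over 10 alternatives the ratio ran from 0.96 to 1.21. BTG2 had the other direction, with 7.28 FPKM in the AUF1 siRNA library and 15.2 FPKM in the HuR siRNA library, a ratio of -0.86. TOB1 (ENSG00000141232, hg19 chromosome 17, 48939584 to 48945339) was called only in the control siRNA library against PDL 15, at 7.52 and 22.3 FPKM, a ratio of -1.05. That call was lost with assembled transcripts (-0.67), with 1 transcript for the gene (-0.41) and with a minimum mean of 5 FPKM (-0.92).

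The decapping proteins gave no call at PDL 55 or in either siRNA comparison. DCP2, the enzyme that removes the cap, had 12.8 FPKM at PDL 55, 14.9 with AUF1 siRNA, 11.2 with HuR siRNA, 6.88 with control siRNA and 19.5 at PDL 15. Its control siRNA level was the lowest, and the interval there (3.54 to 10.2) overlapped that with HuR siRNA (8.16 to 14.2) but not that with AUF1 siRNA (11.6 to 18.3). The DCP2 transcripts with a mean of at least 1 FPKM were 369 to 570 nt long. With control siRNA, ENST00000502635 and ENST00000510046 had 0 FPKM. ENST00000502635 also had 0 FPKM with AUF1 siRNA, and ENST00000512751 had 0 FPKM with HuR siRNA. The scaffold EDC4 had 6.86 FPKM with AUF1 siRNA and 3.20 to 3.90 FPKM in the other 4 libraries, so only the AUF1 siRNA library stood apart. Its ratio was 0.58 against control siRNA and 0.79 against HuR siRNA. An assembled transcript raised the HuR siRNA level of EDC4 to 10.4 FPKM. EDC3, a scaffold that binds DCP2 and DDX6, had 5.29 FPKM with AUF1 siRNA, 3.88 with HuR siRNA and 2.78 with control siRNA. DCP1A and DCP1B, activators of DCP2, had ratios between -0.36 and 0.25 in the 5 comparisons. For DCP1B an assembled transcript of 42 nt, at 127.6 FPKM, raised the control siRNA level to 145.7 FPKM, against 15.3 to 24.4 FPKM in the other libraries. DDX6 (ENSG00000110367, hg19 chromosome 11, 118620034 to 118661858) had a ratio of -0.07 at PDL 55 and was called only in the control siRNA library against PDL 15, at -1.22. That ratio was -0.96 with assembled transcripts, -0.57 with status OK alone and -0.76 with 1 transcript for the gene, without a call. It had 29.4 FPKM with AUF1 siRNA and 28.1 FPKM with HuR siRNA, so all 3 transfected libraries were below both untransfected ones.

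In the LSM1-7 ring, which binds the 3′ end of deadenylated mRNAs, LSM3, LSM4 and LSM5 lay within 0.25 of the median gene in all 5 comparisons. LSM4, measured as 1 transcript, had 6.68 FPKM at PDL 55, 7.62 with AUF1 siRNA, 7.17 with HuR siRNA, 6.28 with control siRNA and 7.88 at PDL 15. LSM7 stood out with HuR siRNA, at 14.4 FPKM, against 7.72 FPKM with control siRNA and 6.97 to 8.54 FPKM in the remaining libraries. Its ratio of 0.52 was not called, and the intervals did not overlap. LSM6 was lower at PDL 55, with 2.92 FPKM against 7.14 FPKM at PDL 15, and a ratio of -0.74.

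LSM2 (ENSG00000204392, hg19 chromosome 6, 31765173 to 31774761) was called in both siRNA comparisons. It had 0.778 FPKM at PDL 55, 3.40 with AUF1 siRNA, 3.26 with HuR siRNA, 8.41 with control siRNA and 2.62 at PDL 15. The control siRNA library alone was high. The ratios were -1.28 with AUF1 siRNA and -1.44 with HuR siRNA, and with AUF1 siRNA the intervals overlapped (1.78 to 5.03 and 4.57 to 12.2 FPKM). Against PDL 15 in place of the control library, the same siRNA libraries gave 0.48 and 0.31, of the opposite sign. The ratio of control siRNA to PDL 15, at 1.78, was the only one of 23 called ratios that was at least 2-fold under each alternative tried.

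The 5′ to 3′ exonucleases XRN1, of the cytoplasm, and XRN2, of the nucleus, were not called. XRN1 had 21.9 FPKM at PDL 55, 18.8 with AUF1 siRNA, 18.3 with HuR siRNA, 14.8 with control siRNA and 30.3 at PDL 15. A transcript of 674 nt, ENST00000467077, carried 62.5% of the XRN1 level. XRN2 had 20.7, 16.1, 23.0, 16.0 and 33.1 FPKM in these libraries. Both were highest at PDL 15, where the intervals lay above those of the other 4 libraries. Relative to the median gene their ratios were -0.14 and -0.34 at PDL 55, and -0.58 and -0.60 in the control siRNA library against PDL 15.

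Calls fell most often on exosome genes, but they recurred in the same few genes over comparisons that share libraries. In each comparison at most 2 of the 6 core subunits tested, and 1 of the 2 nucleases, were called in the same direction. The shares of all genes tested were 6.36% to 14.6%. Many of these calls were lost with assembled transcripts added. The exosome core is a ring with a cap that threads RNA to the nucleases, and in humans the ring itself is not catalytic. EXOSC4, a ring subunit (ENSG00000178896), had 15.3 FPKM with AUF1 siRNA, 16.0 with HuR siRNA, 2.37 with control siRNA, 9.93 at PDL 55 and 8.84 at PDL 15. The control library was the low one, with an interval of 0.340 to 4.55 FPKM below the other 4. The ratios were 2.09 with AUF1 siRNA and 2.04 with HuR siRNA. An assembled transcript of 358 nt brought the control siRNA level to 9.47 FPKM, and the ratios to 0.40 and 0.36. Against PDL 15 they were 0.92 and 0.87.

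EXOSC5, another ring subunit (ENSG00000077348, hg19 chromosome 19, 41892281 to 41903256), had the opposite pattern at a low level. It had 0.885 FPKM with AUF1 siRNA, 1.63 with HuR siRNA and 3.15 with control siRNA, and the remaining libraries had 0.629 FPKM at PDL 55 and 1.25 FPKM at PDL 15. Its ratio with AUF1 siRNA was -1.32, and -0.06 against PDL 15. An assembled transcript raised its AUF1 siRNA level to 2.07 FPKM and brought the ratio to -0.67, which is not called. EXOSC2, a cap subunit (ENSG00000130713, hg19 chromosome 9, 133569108 to 133580248), had 10.6 FPKM with AUF1 siRNA, 4.50 with HuR siRNA and 8.89 with control siRNA. The HuR siRNA library was low, with a ratio of -1.14 to the control, whose interval overlapped, and AUF1 siRNA against HuR siRNA gave 1.18. A single assembled transcript of 219 nt raised the HuR siRNA level to 26.5 FPKM and turned these ratios to 1.13 and -1.14. EXOSC7, a ring subunit, had ratios between 0.20 and 0.76 in the 5 comparisons, and EXOSC6 between -0.30 and 0.78.

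EXOSC9 (ENSG00000123737, hg19 chromosome 4, 122722472 to 122738176), a ring subunit also known as an autoantigen, had 3.17 FPKM at PDL 55, 20.4 FPKM with HuR siRNA and 11.1 FPKM at PDL 15, and was listed at 0 in the AUF1 siRNA and control siRNA libraries. The PDL 55 ratio was -1.22, with intervals that did not overlap. No ratio is given against a library at 0. With assembled transcripts both of these libraries had a level, 7.47 FPKM with AUF1 siRNA and 4.57 FPKM with control siRNA. The order over the libraries was then HuR siRNA, PDL 15, AUF1 siRNA, control siRNA and PDL 55, and the PDL 55 ratio was -1.21. The PDL 55 call was lost with status OK alone (-0.43) and on FPKM times length (-0.84).

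EXOSC10 (ENSG00000171824, hg19 chromosome 1, 11126675 to 11159938), the nuclear nuclease of the exosome, was the only member called higher at PDL 55. It had 11.6 FPKM at PDL 55, 8.30 with AUF1 siRNA, 18.4 with HuR siRNA, 15.4 with control siRNA and 5.70 at PDL 15. The ratio at PDL 55 was 1.22 and with AUF1 siRNA -1.002. The signal was split between a pair of long transcripts. ENST00000304457 had 4.12 FPKM at PDL 55 and 8.30 FPKM with AUF1 siRNA, and 0 FPKM with control siRNA and at PDL 15. ENST00000376936 had 0 FPKM with AUF1 siRNA. With assembled transcripts added the levels were 11.6 FPKM at PDL 55, 19.3 with AUF1 siRNA, 18.4 with HuR siRNA, 15.4 with control siRNA and 18.3 at PDL 15, so the ratio was -0.29 at PDL 55 and 0.07 with AUF1 siRNA, both without a call.

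DIS3 (ENSG00000083520, hg19 chromosome 13, 73329540 to 73356234), the nuclease bound to the exosome core, had 33.5 FPKM at PDL 55, 33.3 with AUF1 siRNA, 58.9 with HuR siRNA, 18.9 with control siRNA and 61.4 at PDL 15. HuR siRNA and PDL 15 were high with overlapping intervals, PDL 55 and AUF1 siRNA lay at about the same lower level, and the control library was lowest. The ratio was 1.30 with HuR siRNA and 0.61 with AUF1 siRNA, both against control siRNA, and -0.55 at PDL 55. A transcript of 481 nt, ENST00000469339, carried 84.2% of the level, with 28.4 FPKM at PDL 55, 28.5 with AUF1 siRNA, 51.7 with HuR siRNA, 13.4 with control siRNA and 51.6 at PDL 15. Over the longer ENST00000490646, of 2934 nt, the levels were 2.89, 4.85, 4.09, 3.16 and 5.44 FPKM in that order. Against PDL 15 the HuR siRNA ratio was 0.02. On FPKM times length the HuR siRNA ratio to control siRNA was 0.665, without a call. DIS3 was also called in control siRNA against PDL 15, at -1.24, and that call was lost on FPKM times length (-0.76).

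**Figure D4:**
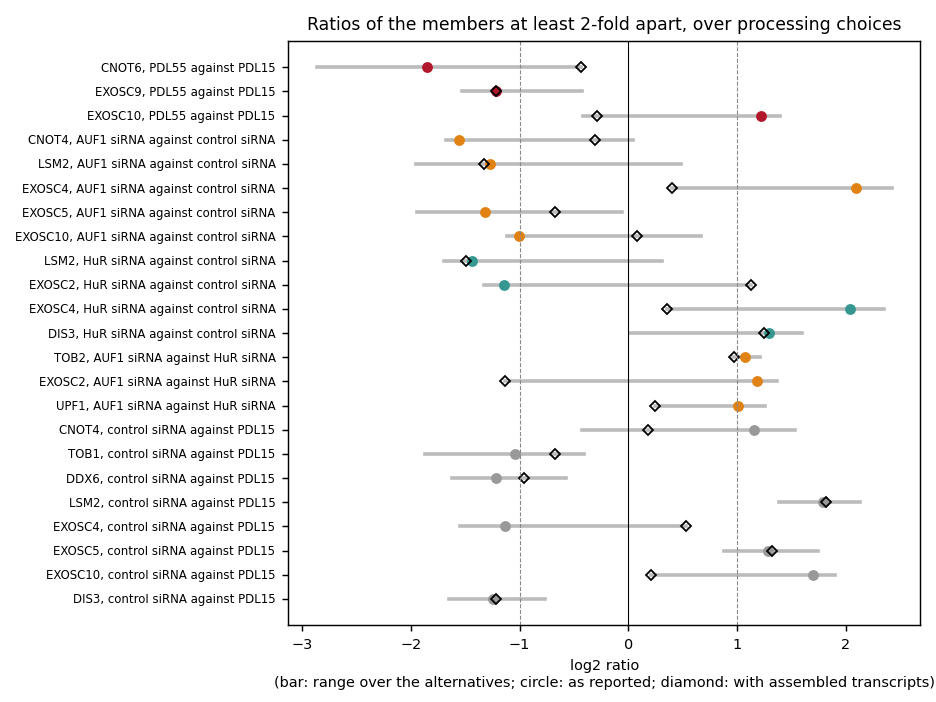
Log2 ratio of each member called in a comparison (circle), the same ratio with assembled transcripts added (diamond) and the range over the processing alternatives (grey bar); dashed lines mark 2-fold, and ratios with a library listed at 0 are left out. The bars of TOB2 and of LSM2 in control siRNA against PDL 15 are among the shortest. Those of EXOSC2, of EXOSC10 at PDL 55 and with AUF1 siRNA, and of LSM2 with AUF1 siRNA and with HuR siRNA cross 0. So do those of CNOT4 with AUF1 siRNA and, in control siRNA against PDL 15, of CNOT4 and EXOSC4.

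In nonsense-mediated decay, which removes mRNAs with early stop codons, UPF1 (ENSG00000005007, hg19 chromosome 19, 18942744 to 18979038) is the helicase at the centre of the pathway. It had 3.94 FPKM at PDL 55, 5.16 with AUF1 siRNA, 2.32 with HuR siRNA, 3.52 with control siRNA and 3.65 at PDL 15. AUF1 siRNA was the highest and HuR siRNA the lowest, with intervals apart (4.85 to 5.47 and 2.06 to 2.58) and a ratio between them of 1.004. An assembled transcript of 5377 nt, close in length to the annotated one of 5344 nt, held another 2.29 FPKM in the HuR siRNA library, and with it the ratio was 0.25. The call was also lost with no filter and with no centring (each 0.89), and with 1 transcript for the gene (0.98). UPF1 was one of the 2 members with the AU-rich nonamer, and whether the motif bears on its level was not tested. The other one, EXOSC6, was not called in any comparison, and its summed transcript does not reach the nonamer. UPF2, which bridges UPF1 to the exon junction complex, had ratios between -0.28 and 0.33. UPF3B, its partner there, had 2.69 FPKM at PDL 55 and 6.09 FPKM at PDL 15, a ratio of -0.63 with intervals apart.

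A list of 66 other genes of the same pathways was read beside the members, of which 60 were tested. At PDL 55 against PDL 15, the median ratio was -0.15, and 2 of them were at least 2-fold higher and 4 lower, against the 9.61% and 10.3% of all genes. These counts include 2 genes with a library at 0: SMG5, a factor of nonsense-mediated decay, had 27.1 FPKM at PDL 55 and was listed at 0 at PDL 15, and PABPN1 was listed at 0 at PDL 55 and had 4.04 FPKM at PDL 15. ANGEL1, a relative of the CCR4 nucleases, had 4.37 FPKM at PDL 55, against 0.489 FPKM at PDL 15. TUT4, which adds uridines to RNA 3′ ends, had 6.91 FPKM at PDL 55, against 32.8 FPKM at PDL 15. DIS3L2, the nuclease that degrades uridylated RNA, had 4.69 FPKM at PDL 55, against 13.9 FPKM at PDL 15, and the mitochondrial nuclease PNPT1 had 1.46 and 5.47 FPKM in these libraries.

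Of the 60, the AUF1 siRNA comparison gave 5 higher and 5 lower, against 10.7% and 11.9% of all genes, and the HuR siRNA comparison 4 and 4, against 11.4% and 12.5%. Both counts of higher genes include DCPS, the scavenger enzyme that clears cap fragments, which had 11.5 FPKM with AUF1 siRNA and 11.0 FPKM with HuR siRNA and was listed at 0 with control siRNA. SKIC3, a scaffold of the SKI complex that feeds mRNA to the cytoplasmic exosome, had 3.88 FPKM with AUF1 siRNA, 62.5 FPKM with HuR siRNA and 16.7 FPKM with control siRNA, the widest spread among those named. PATL1, which binds the LSM1-7 ring and the decapping enzyme, had 15.7 FPKM with AUF1 siRNA, 16.6 FPKM with HuR siRNA, 3.90 FPKM with control siRNA and 19.8 FPKM at PDL 15, so the control library alone was low. PABPN1, the nuclear poly(A)-binding protein, had 3.29 FPKM with AUF1 siRNA, 14.1 FPKM with HuR siRNA and 12.4 FPKM with control siRNA, and 4.04 FPKM at PDL 15. PNPT1 had 3.64 FPKM with AUF1 siRNA, 0.765 FPKM with HuR siRNA and 7.07 FPKM with control siRNA. Between the AUF1 siRNA and HuR siRNA libraries 2 of the 60 were higher with AUF1 siRNA and 4 lower, against 6.54% and 6.36% of all genes. In control siRNA against PDL 15, 12 were higher and 8 lower, against 14.6% and 12.0%, and 4 of these 20 genes had a library at 0.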

How the data were processed

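Total RNA of 5 WI-38 libraries, 1 per group, was analysed. The submitters' processing notes name hg19 as the build, and Cuffdiff, Cufflinks 2.0.2 and TopHat2 2.0.6 as tools. The authors deposited, per the file headers, 1 table per library with FPKM, its 95% bounds, a coverage signal (used here as coverage per FPKM only), length and status per transcript. Annotation release, strand and read numbers were not given in the sources used here, so overlapping and antisense genes cannot be told apart and depth in reads is unknown.

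Of 160485 annotated transcripts 98.6% were assigned to a gene, through GENCODE release 29, identifiers in the tables, or position. FPKM and its bounds were summed over transcripts listed in all 5 libraries and marked failed in none, so that the same transcripts entered every library. Summed bounds are wider than an interval of the sum, and cover the estimate within 1 library. Genes with a mean of at least 1 FPKM were tested, with a pseudocount of 1 FPKM. With 1 library per group no test was run. The steps were tested on simulated data, in Python 3.11.15 with pandas 2.3.3, numpy 2.4.6 and matplotlib 3.10.9. Sequences came from GENCODE transcripts. Members called or leading their complex were described in full. Of the other pathway genes, up to 4 per comparison were selected by size of ratio. They were at least 2-fold apart, with intervals apart, and above 0 in both libraries. Selected but not described were CASC3 (1.89 with AUF1 siRNA), TENT4B (-1.44 with HuR siRNA) and MTREX (-1.16 for AUF1 siRNA against HuR siRNA). The same holds for CNOT11 (1.86) and SKIC2 (1.97) in control siRNA against PDL 15. SMG5, DCPS and, at PDL 55, PABPN1 fall outside this rule and were named after their values were seen. A library at 0 enters counts and medians through the pseudocount. The members and lists were chosen with earlier results of these data known. Alternatives changed the pseudocount, filter, centring, transcripts summed and reference library.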

Additional observations from a re-analysis of the deposited data

How the results depend on the processing

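No paired analysis was possible because each group had 1 library and the labels carry no replicate numbers. The members' median ratio moved by less than the interval of a typical member under every alternative. That limit is loose for a median of 38 members, so staying within it says little about how stable the median is. The median ran from -0.49 to -0.13 for PDL 55, -0.07 to 0.24 for AUF1 siRNA and -0.06 to 0.28 for HuR siRNA. It ran from -0.045 to 0.145 for AUF1 siRNA against HuR siRNA and from -0.46 to 0.10 for control siRNA against PDL 15. Only for PDL 55 did it keep its sign in every alternative. Of 232 alternative values of the 23 called ratios, 189 lay within the bounds of the reported one, 32 moved beyond them and 11 changed sign. Ratios of single genes with a library at 0 are left out of these values. The cause of the moves below was not tested.

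The counts of members at least 2-fold higher and lower, in this order, moved by over 1.5 times as follows. With no filter they were 0 and 6 for PDL 55, 6 and 1 for HuR siRNA, 1 and 3 for AUF1 siRNA against HuR siRNA, 2 and 9 for control siRNA against PDL 15, and 2 higher for AUF1 siRNA; with no centring the same, except 2 lower for AUF1 siRNA against HuR siRNA. With assembled transcripts they were 0 and 1 for PDL 55, 5 and 4 for HuR siRNA, 0 and 3 for AUF1 siRNA against HuR siRNA, and 2 lower for control siRNA against PDL 15. With transcripts of status OK alone, PDL 55 had 1 lower, AUF1 siRNA 2 and 2, and AUF1 siRNA against HuR siRNA 2 lower. With 1 transcript per gene, AUF1 siRNA had 2 higher, HuR siRNA 5 and 6, and AUF1 siRNA against HuR siRNA 4 lower. On fragment mass (FPKM times length), 4 were lower for HuR siRNA, 3 for AUF1 siRNA against HuR siRNA, and also 3 for control siRNA against PDL 15. A pseudocount of 0.1 gave 5 higher for HuR siRNA and 2 lower for AUF1 siRNA against HuR siRNA, and a mean of at least 5 FPKM 2 lower for AUF1 siRNA. With the other PDL 15 library as reference, PDL 55 had 5 higher, AUF1 siRNA 0 and 1, and HuR siRNA 1 and 1.

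Signs changed with assembled transcripts for EXOSC10 (-0.29 at PDL 55, 0.074 with AUF1 siRNA), EXOSC2 (1.13 with HuR siRNA, -1.14 for AUF1 siRNA against HuR siRNA) and EXOSC4 (0.53 for control siRNA against PDL 15). They changed with status OK alone for CNOT4 (0.038 with AUF1 siRNA, -0.43 for control siRNA against PDL 15). They changed with the other reference for EXOSC10 (-0.42 at PDL 55, 0.67 with AUF1 siRNA) and LSM2 (0.48 with AUF1 siRNA, 0.31 with HuR siRNA). A pair of alternatives was chosen after seeing the data: protein-coding genes alone moved no count by over 1.5 times, and leaving out genes at 0 gave 0 lower for AUF1 siRNA against HuR siRNA. The control siRNA library, with the lowest coverage per FPKM, had the widest intervals for many members, such as LSM5 (0.0574 to 7.55 FPKM) and EXOSC7 (7.67 to 23.1 FPKM).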
